A study of Danio rerio with 2 samples.

Results

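The genes described here are the subunits of oxidative phosphorylation, taken by gene symbol: names that begin with ndufa, ndufab1, ndufb, ndufc, ndufs or ndufv and a number, with cox4 to cox8, uqcr, atp5 or sdha to sdhd, and, for the mitochondrial genome, with mt-nd, mt-co, mt-cyb or mt-atp. The rule found 110 of the 35117 genes in the count tables, 97 of them nuclear and 13 mitochondrial (mt-). The rule itself uses gene names alone. It also caught 5 genes that are not subunits, the succinate dehydrogenase assembly factors sdhaf1, sdhaf2, sdhaf3 and sdhaf4 and the coupling factor atp5s, which are given apart where complexes are described.

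Oxidative phosphorylation is carried out in the inner mitochondrial membrane. Complex I takes electrons from NADH and complex II from succinate, complex III passes them to cytochrome c, complex IV hands them to oxygen, and complex V, the ATP synthase, uses the resulting proton gradient to make ATP. Complex II is built from nuclear genes alone, whereas the others join nuclear subunits to core subunits made inside the organelle, so that each needs transcripts from both genomes. Cartilage has few blood vessels, and its cells are known for relying largely on glycolysis.

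Single-cell transcripts were counted in cartilage cells of zebrafish carrying the transgenes Tg(fli1a:EGFP)y1 and Tg(sox10:DsRed)el10. The WT library came from wild-type animals at 21 days post fertilization and the mutant library from nkx3.2 mutants homozygous for el802 at 22 days, so genotype and age cannot be told apart. Live cells positive for both fluorescent reporters had been sorted and captured with a 10x Genomics 3′ kit, which tags each captured transcript with a unique molecular identifier (UMI). After removal of doublet calls and of 3 WT cells rich in globin, 2051 WT and 1996 mutant cells remained. With 1 library per genotype no test between genotypes was possible, and each interval is a 95% interval for counting error only.

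The libraries differed in several ways that touch the values below. Median depth was 5778 UMIs per cell in WT against 6998.5 in mutant cells, and ribosomal protein genes held 48.0% and 53.3% of all UMIs. The nkx3.2 transcript had 633 UMIs in WT against 673 in mutant cells, 45.6 and 41.5 counts per 1000000 UMIs (CPM), and such a 3′ count does not check a small lesion in the gene. Markers of glia, leukocytes, endothelium and blood each summed to at most 1.08 CPM, those of skeletal muscle to 33.4 and 10.0 CPM and those of epithelium to 233 and 165 CPM. The libraries shared 4 cell barcodes. Over all cells the label cartilage was met by the 6 measured cartilage markers, which summed to 29881 CPM in WT against 19452 CPM in mutant cells. Not all cells were rich in them. In the stroma, fibrous and ungated groups described below, gated as low in the marker matn1, they summed to 1136, 2626 and 3785 CPM in WT. In the mutant these groups had 887, 2142 and 2837 CPM.

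Of the 110 genes, 102 had at least 20 UMIs over both libraries and are called measured below: 89 of the 97 nuclear genes and 13 of the 13 mt- genes. The 8 others were sdhda, sdhaf1, cox4i1l, ndufa9b, ndufa4l2a and ndufa4l2b, with 1 to 12 UMIs each in all, and ndufs8b and ndufa4, which had 0. A count of 0 allows a level of up to 0.216 CPM (WT) or 0.185 CPM (mutant), at 3 counts per library. Counts per gene are of transcript ends, so they do not scale with transcript length.

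Transcripts from both genomes made up a smaller part of the mutant library. The 97 nuclear genes held 1.169% of all UMIs in WT against 0.980% in mutant cells, so the mutant over WT ratio was 0.838, with an interval of 0.832 to 0.844. The 13 mt- genes held 0.793% in WT against 0.540% in mutant cells, giving a ratio of 0.681 (0.675 to 0.688). In single cells the median nuclear share was 1.12% in WT, with quartiles of 0.926% and 1.29%, and 0.929% in the mutant, with quartiles of 0.748% and 1.10%. The median mt- share was 0.772% in WT, with quartiles of 0.589% and 1.03%, and 0.546% in the mutant, with quartiles of 0.405% and 0.741%, so the ranges of cells overlapped widely.

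Gene by gene, 73 of the 89 measured nuclear genes had a lower CPM in the mutant and 16 a higher one. Among all 11522 genes with at least 20 UMIs, 58.1% were lower and 41.9% higher. The median log2 ratio was -0.24 for the nuclear genes, -0.57 for the mt- genes and -0.13 for all genes. A counting interval lay below 1 for 58 nuclear genes, above 1 for 7 and held 1 for 24, beside 28.1% of all genes with an interval below 1 and 16.7% with an interval above 1. All 13 mt- genes were lower, 12 of them with an interval below 1. At least 1.5-fold lower were 13 nuclear and 6 mt- genes, beside 22.3% of all genes, and at least 1.5-fold higher were 2 nuclear genes and 0 mt- genes, beside 13.8% of all genes. The nuclear share past 1.5-fold was below that of all genes, but the genes were not matched for abundance. At least 100 UMIs were held by 86 of the 89 nuclear genes against 6831 of the 11522 genes. Scarcer genes carry more counting error, which touches both the shares past 1.5-fold and the shares of intervals. The nuclear difference consisted of many small differences.

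**Figure D1:**
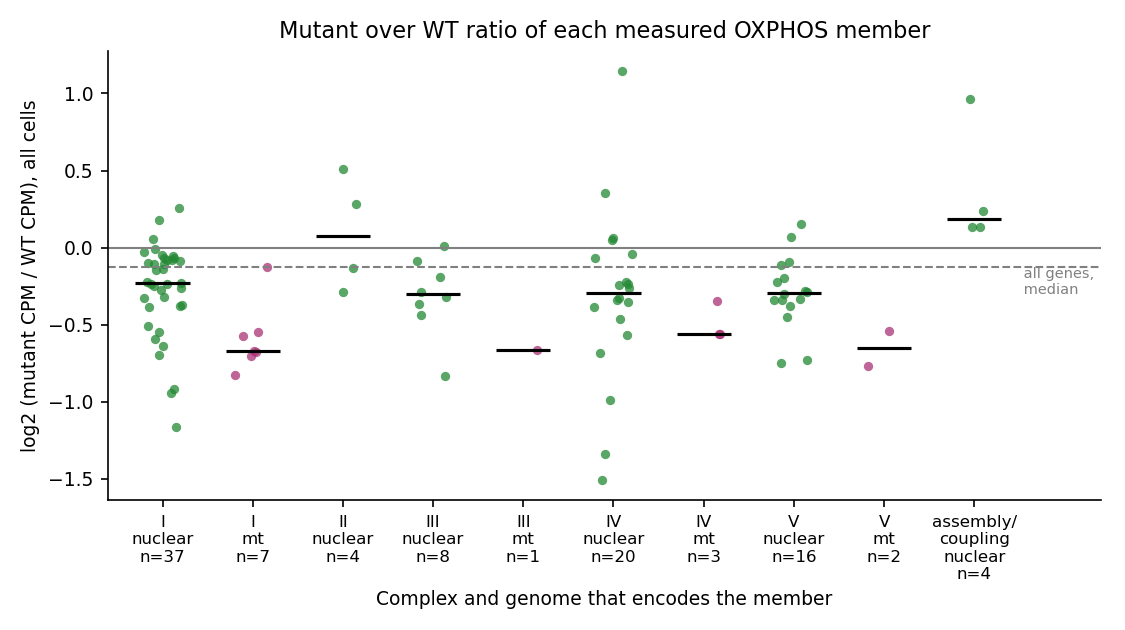
Each point is 1 measured gene, with its log2 ratio of mutant to WT CPM over all cells on the vertical axis, set out by complex and by the genome that encodes it. Black bars are medians, the solid line marks equal CPM and the dashed line the median of all genes at -0.13. Apart from mt-nd4l, the mt- genes of each complex lie lower than most nuclear genes, and complex II stands around equal CPM.

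How much of this is seen depends on what the counts are scaled to. When ribosomal protein and mt- genes were left out of the total, every log2 ratio shifted up by 0.15, and trimmed-mean (TMM) scaling shifted it by 0.14. The nuclear ratio then became 0.931 and 0.924, with 53 and 54 of 89 genes lower beside 48.3% and 49.0% of all genes, and 21 of the 102 measured genes changed side of 0 under at least 1 of these scalings. The mt- ratio became 0.757 and 0.751, with 12 of 13 genes lower. The part of the higher ribosomal protein share in these ratios was not tested.

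The nuclear subunits of complex I were the most numerous group. They summed to 2055 CPM in WT against 1759 CPM in mutant cells, a ratio of 0.856. Lower were 34 of 37 genes, beside 58.1% of all genes. This count depended on the scaling. With ribosomal protein and mt- genes left out of the total, 20 of 37 were lower beside 48.3% of all genes, and the ratio was 0.950. The accessory subunits NDUFB1 (193 CPM in WT, 182 in the mutant) and ndufa1 (132 and 102 CPM) had the most UMIs. The accessory subunit gene ndufa12 had the lowest ratio, with 444 WT and 232 mutant UMIs, 32.0 and 14.3 CPM, giving a ratio of 0.447 (0.379 to 0.525). The accessory subunit gene ndufc2 followed with 604 and 368 UMIs and a ratio of 0.521 (0.456 to 0.594). On the other side stood ndufv2, which encodes an iron-sulfur subunit of the arm that takes up NADH, with 559 and 780 UMIs and a ratio of 1.19 (1.07 to 1.33). The core subunits ndufs1 and ndufv1 had ratios of 0.956 and 0.945, and both intervals held 1.

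Complex II, which feeds electrons from succinate and oxidizes it within the citric acid cycle, was the only complex with a higher sum in the mutant. Its subunits summed to 168 CPM in WT against 197 CPM in mutant cells, giving a ratio of 1.17 (1.11 to 1.24). The membrane anchor gene sdhc had 960 WT and 1598 mutant UMIs, 69.2 and 98.4 CPM, giving a ratio of 1.42 (1.31 to 1.54). The gene of the flavoprotein subunit, sdha, had 538 and 766 UMIs, 38.8 and 47.2 CPM, giving a ratio of 1.22 (1.09 to 1.36). The iron-sulfur subunit gene sdhb went the other way, with 486 and 465 UMIs and a ratio of 0.818 (0.719 to 0.931). For the other anchor gene, sdhdb, the ratio was 0.911 and its interval held 1. Across 9 groups of cells defined below, sdha was higher in the mutant in 8 and sdhc in 7. The share of all genes higher in as many groups was not counted. The other scalings raise every ratio over all cells, so they could not bring either gene below 1.

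Complex III subunits of the nucleus summed to 657 and 547 CPM, a ratio of 0.833. Lower were 7 of 8 genes, beside 58.1% of all genes. Without ribosomal protein and mt- genes in the total, 6 of 8 were lower beside 48.3%. The small subunit genes uqcrh (197 and 161 CPM) and uqcrq (166 and 156 CPM) had the most UMIs. The lowest ratio belonged to uqcrfs1, the Rieske iron-sulfur subunit, with 600 WT and 394 mutant UMIs and a ratio of 0.561 (0.493 to 0.639). The highest belonged to the core subunit gene uqcrc2a at 1.01 (0.888 to 1.14), and its copy uqcrc2b stood at 0.739.

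Among the nuclear sums of complexes I to V, that of complex IV had the lowest ratio. The sum was 3994 CPM in WT against 3177 CPM in mutant cells, a ratio of 0.796. Lower were 16 of 20 genes, beside 58.1% of all genes. Without ribosomal protein and mt- genes in the total, 14 of the 20 genes of complex IV were lower beside 48.3%. Its genes with the most UMIs were cox6b2 (811 and 684 CPM) and ndufa4l (513 and 372 CPM), the latter counted here with complex IV, where the mammalian NDUFA4 protein resides. The small subunit gene cox7c had 4083 WT and 2403 mutant UMIs, 294 and 148 CPM, giving a ratio of 0.503 (0.478 to 0.529). It was lower in 9 of 9 cell groups, with ratios from 0.479 to 0.597. The main subunit 4 gene, cox4i1, had 316 CPM in WT against 327 CPM in mutant cells, giving a ratio of 1.03 (0.994 to 1.08). The scarce copy cox5b2, with 29 and 75 UMIs, had the highest ratio at 2.21 (1.42 to 3.52).

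Complex V had the largest nuclear sum, 4779 CPM in WT against 4070 CPM in mutant cells, a ratio of 0.852. Lower were 14 of 16 genes, beside 58.1% of all genes. Without ribosomal protein and mt- genes in the total, 12 of 16 were lower beside 48.3%. The catalytic subunit genes atp5a1 (alpha) and atp5b (beta) had ratios of 0.794 and 0.813. The gene with the most UMIs of all nuclear members was atp5g3b, 1 of 3 genes for subunit c, which forms the rotating ring; it had 1040 and 974.5 CPM, a ratio of 0.937, and lay above 1 under either other scaling. Its copies were lower: atp5g3a had 150 and 89.1 CPM, giving a ratio of 0.594 (0.555 to 0.636), and atp5g1 had 146 and 88.1 CPM, giving a ratio of 0.602 (0.562 to 0.645). Accordingly atp5g3b made up 77.8% of subunit c UMIs in WT against 84.6% in mutant cells, with a higher share in the mutant in 9 of 9 cell groups. The WT and mutant intervals of this share overlapped in col10a1a-positive cells, six2a-positive cells and stroma. In stroma the shares were 86.2% and 86.8%. The small epsilon subunit gene atp5e had 479 and 392 CPM, and the subunit e gene atp5ia had the highest ratio of this complex at 1.11 (1.05 to 1.17). Among the non-subunits, atp5s had 65 and 148 UMIs and a ratio of 1.95 (1.44 to 2.65), while sdhaf2 and sdhaf4 had ratios of 1.18 and 1.10, each with an interval that held 1.

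The mitochondrial genome gave few genes but many UMIs. Of its complex IV core subunits, mt-co2 had 2151 CPM in WT against 1694 CPM in mutant cells, mt-co3 had 1514 and 1024 CPM and mt-co1 had 853 and 578 CPM. Their ratios were 0.788, 0.677 and 0.678. Cytochrome b of complex III, mt-cyb, had 1333 and 841 CPM, giving a ratio of 0.631 (0.617 to 0.645), and mt-atp6, the proton channel subunit of complex V, had 1015 and 596 CPM, giving a ratio of 0.587 (0.572 to 0.602).

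Of the complex I subunits, mt-nd2 had 293 and 180 CPM, mt-nd4 had 285 and 195 CPM, mt-nd1 had 210 and 132 CPM, mt-nd3 had 190 and 107 CPM and mt-nd5 had 59.2 and 37.0 CPM. Their ratios ran from 0.563 for mt-nd3 to 0.684 for mt-nd4. The short genes mt-atp8, mt-nd4l and mt-nd6 had at most 9.94 CPM; mt-atp8 shares transcripts with mt-atp6, mt-nd4l with mt-nd4, and mt-nd6 lies on the other strand, so their counts are uncertain. Their ratios were 0.688, 0.918 and 0.672, and the interval of mt-nd4l (0.701 to 1.20) held 1. In each complex that has both kinds of subunit the mt- sum had the lower ratio over all cells. It was 0.630 for mt- and 0.856 for nuclear genes in complex I and 0.631 and 0.833 in complex III. For complex IV the ratios were 0.730 and 0.796, and for complex V 0.588 and 0.852. Mutant cells were deeper, and the gap at like depth varied with the depth. It was smaller in the window of depth compared below, which was chosen after seeing the data. There the ratio was 0.766 for all mt- genes and 0.802 for all nuclear genes. In the shallowest of the depth bins described below the ratios were 0.776 and 0.803. In cells of 8000 to 12000 UMIs they were 0.677 and 0.807, and in cells of 12000 UMIs or more 0.687 and 0.842. The gap thus remained in deep cells. Whether the mt- sum of each complex had the lower ratio at like depth was not tested.

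Set against each other within each library, the mt- genes had 0.678 UMIs per nuclear UMI in WT against 0.551 in mutant cells. This quotient does not depend on the scaling to the library total, and its mutant over WT ratio was 0.813 (0.804 to 0.822). The quotient was lower the deeper the cell, in both libraries. In WT cells of under 4000 UMIs the quotient was 1.15, and it was 0.801 at 4000 to 6000 UMIs, 0.689 at 6000 to 8000, 0.593 at 8000 to 12000 and 0.500 at 12000 or more. In the mutant the same bins gave 1.11, 0.800, 0.632, 0.498 and 0.408. The ratio of quotients was 0.966, 0.999, 0.918, 0.839 and 0.816 from the shallowest to the deepest bin, so the libraries were close in shallow cells and apart in deep ones. The intervals of the first 2 ratios held 1 and those of the other 3 did not.

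The shares behind the quotient moved in opposite directions with depth. In WT the nuclear share was 1.02% of UMIs in the shallowest bin and 1.26% in the deepest, while the mt- share was 1.18% and 0.631%. Counted per cell, WT cells held 35.0 mt- and 30.4 nuclear UMIs in the shallowest bin and 94.2 mt- and 188 nuclear UMIs in the deepest. Mutant cells held 28.0 and 25.2 in the shallowest bin and 68.4 and 167 in the deepest. At each depth the mutant was below WT for both genomes. The nuclear ratio was 0.803, 0.801, 0.800, 0.807 and 0.842 across the 5 bins and the mt- ratio 0.776, 0.800, 0.734, 0.677 and 0.687.

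**Figure D2:**
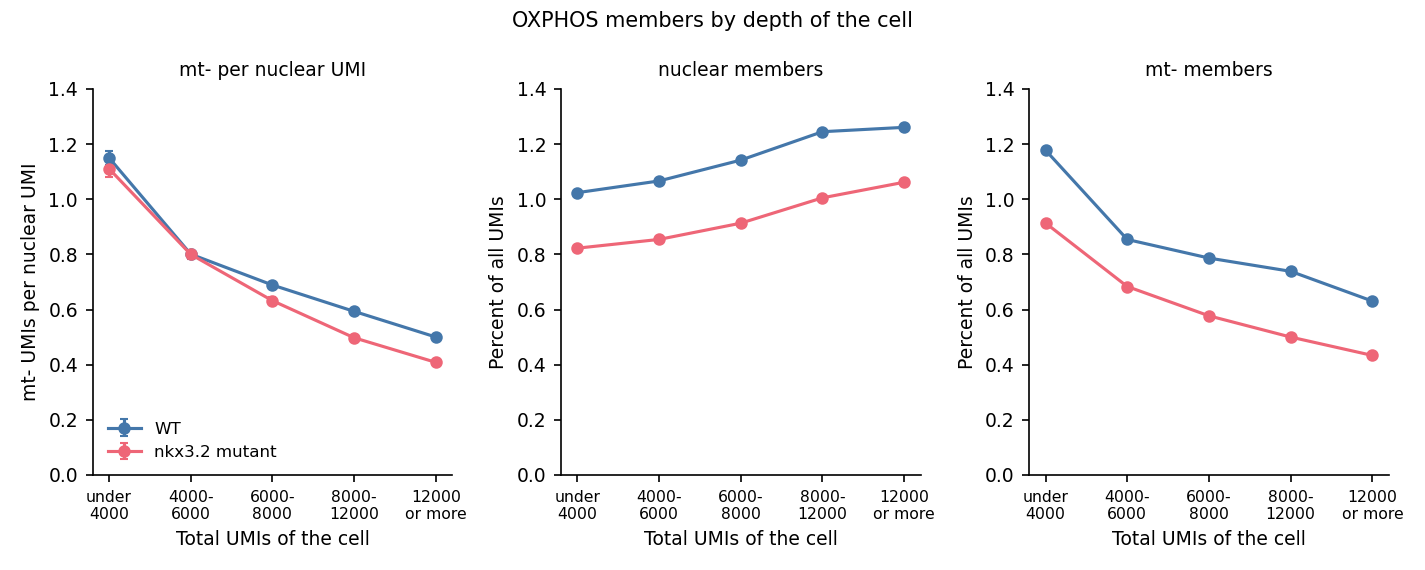
Plots against the total UMIs of the cell, in 5 bins, for WT (blue) and mutant (red) cells: mt- UMIs per nuclear UMI with 95% counting intervals, the nuclear share of UMIs and the mt- share of UMIs. The quotient goes from 1.15 to 0.500 in WT and from 1.11 to 0.408 in the mutant, the libraries coincide at 4000 to 6000 UMIs, and the mutant lies below WT in both shares in each bin.

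Because mutant cells were deeper, the genotypes were also compared in the 950 WT and 777 mutant cells of 4000 to 8000 UMIs, a window chosen after seeing the data. There the nuclear ratio was 0.802 and the mt- ratio 0.766, and the ratio of quotients was 0.955. The lower level of both genomes in the mutant was thus present at like depth, with 70 of 85 nuclear and 13 of 13 mt- genes lower beside 56.6% of all genes in these cells. The excess of the mt- over the nuclear difference was small there. With ribosomal protein and mt- genes also left out of the total, the nuclear ratio in the window was 0.877 and the mt- ratio 0.838. In the window the ratio of complex II was 1.19, that of cox7c 0.474 (0.430 to 0.522), that of ndufc2 0.438 and that of sdhc 1.28 (1.09 to 1.49). For uqcrfs1 it was 0.637, for mt-cyb 0.710 and for mt-co2 0.866.

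Cells were then divided by marker genes into groups that exclude each other, and 9 groups with at least 30 cells in each library were compared. These were mmp13b-positive (79 WT and 40 mutant cells) and col10a1a-positive cells (92 and 50), both markers of hypertrophic cartilage; six2a-positive cells (34 and 84); ccl25b- or cxcl12a-rich stroma (72 and 78); fibrous cells low in matn1 (286 and 172); epyc-high cells (228 and 466); cells high (699 and 453) or moderate (357 and 351) in the cartilage matrix gene matn1; and ungated cells low in matn1 (176 and 290). Groups rest on thresholds rather than clusters and are ranges of marker level. In WT and mutant the 5 osteoblast markers summed to 4484 and 4690 CPM in mmp13b-positive cells. They summed to 1193 and 561 CPM in col10a1a-positive cells and to 394 and 155 CPM over all cells. These 2 groups are thus named by their gate marker and may not be hypertrophic cartilage alone. The summed cartilage markers were lower in the mutant within groups too, at 51609 and 37255 CPM in matn1-high cells, and their part in the values below was not tested. Epithelial markers differed among groups. In WT and mutant they summed to 979 and 670 CPM in fibrous cells, 887 and 237 in stroma and 779 and 620 in ungated cells. In matn1-high cells they summed to 57.8 and 36.7 CPM. The part of such transcripts in the differences between groups was not tested.

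Nuclear genes were lower in the mutant in 9 of 9 groups. In matn1-high cells they held 1.261% of UMIs in WT against 1.030% in mutant cells, a ratio of 0.817, with 73 of 86 genes lower beside 50.3% of all genes. In epyc-high cells the shares were 1.210% and 1.051% with 64 of 86 genes lower, beside 53.5% of all genes. In six2a-positive cells 56 of 74 genes were lower beside 53.4%, in matn1-moderate cells 68 of 84 beside 60.3% and in ungated matn1-low cells 63 of 79 beside 57.3%. In fibrous cells 66 of 80 were lower beside 66.4%, and in mmp13b-positive cells 58 of 73 beside 66.5%. The stroma had 42 of 61 lower beside 60.0% of all genes. Closest to the background were the col10a1a-positive cells, with shares of 1.054% and 1.006%, a ratio of 0.954, and 45 of 75 genes lower beside 57.4%. The nuclear ratio of this group was above 1, at 1.03, when ribosomal protein and mt- genes were left out of the total, and TMM scaling within groups took six2a-positive cells to 1.08 and stroma to 1.01.

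The mt- genes were also lower in 9 of 9 groups, with ratios from 0.666 in epyc-high to 0.861 in mmp13b-positive cells. The epyc-high cells also differed in depth, with medians of 7691.5 UMIs in WT against 11498 in mutant cells. In the 4 depth bins from 4000 UMIs up their mt- ratios were 0.961, 0.744, 0.759 and 0.715, those of matn1-high cells in the same bins 0.808, 0.705, 0.686 and 0.690, so at like depth epyc-high cells were not the lowest. In WT their share ran from 0.589% of UMIs in six2a-positive cells to 0.935% in fibrous cells, and in the mutant from 0.420% in six2a-positive cells to 0.734% in fibrous cells, so both ends were the same groups. Of the 10 mt- genes measured in all 9 groups, 7 were lower in each: mt-nd2, mt-nd3, mt-cyb, mt-co1, mt-co2, mt-co3 and mt-atp6. Of 59 nuclear genes measured in all 9 groups, 17 were lower in each, among them cox7c, cox7a2a, cox6a1, COX5B, ndufc2, atp5g1 and atp5a1, and 0 were higher in each. Among all 1413 genes measured in the 9 groups, 18.2% were lower in each and 8.78% higher in each. For mt-cyb, the WT level was above every mutant group's level in 8 of 9 groups, at 996 to 1419 CPM in WT and 614 to 1018 CPM in the mutant. The level of mt-co2 overlapped more, at 1554 to 2710 CPM in WT and 1458 to 2429 CPM in the mutant.

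**Figure D3:**
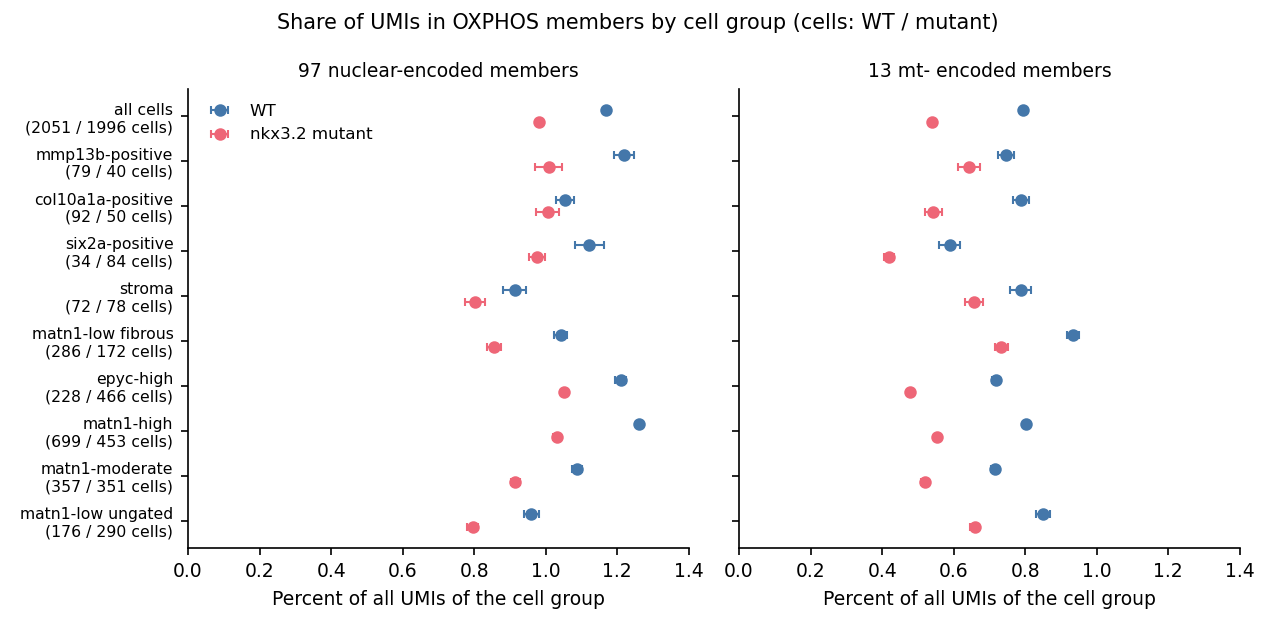
Percent of all UMIs of a cell group held by the nuclear genes (left) and the mt- genes (right), in WT (blue) and mutant (red), with exact 95% binomial counting intervals. The mutant point lies left of the WT point in all 9 groups and in all cells for both genomes. The WT and mutant intervals overlap only for col10a1a-positive cells in the nuclear panel, at 1.054% and 1.006%.

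Over cells of all depths, the quotient of mt- to nuclear UMIs ranged more widely among groups than it differed between genotypes. In WT it was 0.525 in six2a-positive, 0.594 in epyc-high, 0.613 in mmp13b-positive, 0.638 in matn1-high, 0.659 in matn1-moderate, 0.749 in col10a1a-positive, 0.862 in stroma, 0.885 in ungated and 0.897 in fibrous cells. Neighbouring counting intervals overlapped from epyc-high through matn1-moderate cells and again among the last 3 groups. In the mutant the lowest were again six2a-positive at 0.430 and epyc-high at 0.455, and the highest were stroma at 0.819, ungated at 0.829 and fibrous cells at 0.858. These groups also differed in depth, with medians of 7691.5 UMIs in epyc-high and 4064 in fibrous WT cells. In cells of 4000 to 6000 UMIs, where 5 groups could be compared, the quotient spanned 0.651 to 0.933 in WT and 0.694 to 0.910 in the mutant. There epyc-high cells were not among the low groups: they had 0.810 in WT beside 0.801 in matn1-high and 0.651 in matn1-moderate cells, and 0.871 in the mutant beside 0.812 and 0.694. At 12000 UMIs or more, epyc-high and matn1-high cells had 0.484 and 0.522 in WT and 0.401 and 0.428 in the mutant. In that bin the genotypes thus lay further apart than these groups. The six2a-positive cells numbered under 30 in every bin and were not compared at like depth. Cells rich in S-phase transcripts had 0.684 in WT against 0.572 in mutant cells.

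Within groups the ratio of quotients ran from 0.722 in col10a1a-positive to 1.04 in mmp13b-positive cells and was below 1 in 8 of 9. Across 17 pairs of group and depth bin with at least 30 cells in each library, it was below 1 in 13, with a median of 0.945. The lowest was 0.820 (0.791 to 0.850), in matn1-high cells of 12000 UMIs or more. Several intervals held 1, and some lay wholly above it. These were ungated matn1-low cells under 4000 UMIs, at 1.14 (1.05 to 1.23), and matn1-moderate cells of 4000 to 6000 UMIs, at 1.07 (1.0015 to 1.13). In the same 17 pairs the mt- share was lower in the mutant in 17, with a median ratio of 0.759, and the nuclear share in 17, with a median ratio of 0.813.

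The nuclear subunit with the widest range across cell groups was cox4i2, a copy of complex IV subunit 4 that in mammals is known from lung and from low oxygen. Its level in WT went from 3.88 CPM in matn1-high to 94.6 CPM in ungated matn1-low cells, and in the mutant from 2.66 to 112 CPM in the same groups. The smaller of these ranges was 4.61 on the log2 scale, beside a median of 0.87 for nuclear and 0.74 for mt- genes and 1.63 for all 6831 genes with at least 100 UMIs. The copy cox4i1 was nearly level, at 275 to 382 CPM in WT groups and 309 to 359 CPM in mutant groups. Cells with a cox4i2 UMI made up 2.58% (exact interval 1.53% to 4.04%) of WT and 1.99% (0.912% to 3.74%) of mutant matn1-high cells, at median depths of 7904 and 8832 UMIs. In ungated matn1-low cells they made up 26.7% (20.3% to 33.9%) and 34.8% (29.4% to 40.6%), at lower median depths of 4254 and 4638.5 UMIs. No group is known to lack the gene, so the part of free RNA in the lowest shares was not tested.

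As a share of all cox4 UMIs, cox4i2 held 1.24% in WT and 0.815% in mutant matn1-high cells, 4.02% and 2.92% in epyc-high and 5.42% and 5.49% in matn1-moderate cells. In fibrous cells it held 14.8% and 20.2%, in stroma 19.7% and 22.4%, in ungated matn1-low cells 22.9% and 26.3% and in col10a1a-positive cells 18.8% and 26.2%. The intervals of WT and mutant overlapped in each group, and the WT and mutant orders put the same 4 groups on top. The mmp13b-positive cells, the other group with a hypertrophic marker, had only 1.89% and 8.74%, from 4 and 9 UMIs. In cells of 4000 to 8000 UMIs the share was 0.880% in WT and 1.01% in mutant matn1-high cells and 27.4% and 33.8% in ungated matn1-low cells, so the gap between these groups was present at like depth. Over all cells cox4i2 had 307 WT and 459 mutant UMIs, giving a ratio of 1.28 (1.10 to 1.48), and differences between groups in this ratio were not tested. The ungated matn1-low cells made up 8.58% of WT and 14.5% of mutant cells, and matn1-high cells 34.1% and 22.7%. The part of this composition in the ratio over all cells was not tested. Within matn1-high cells the ratio was 0.686 (0.302 to 1.46), from 23 and 11 UMIs, and its interval held 1. Within col10a1a-positive cells it was 1.61 (1.03 to 2.53), from 42 and 42 UMIs, and within mmp13b-positive cells 4.69 (1.31 to 20.8), from 4 and 9 UMIs.

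**Figure D4:**
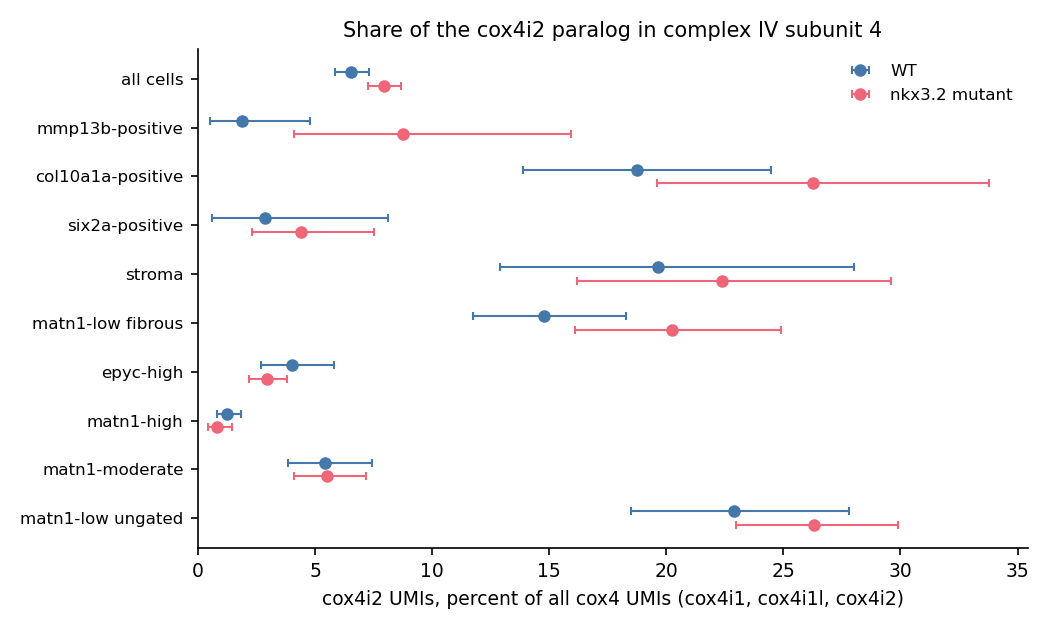
Percent of all cox4 UMIs (cox4i1, cox4i1l and cox4i2) that came from cox4i2, by cell group, in WT (blue) and mutant (red), with exact 95% binomial counting intervals. Shares of 14.8% to 26.3% in col10a1a-positive, stroma, fibrous and ungated cells stand apart from 0.815% to 5.49% in matn1-high, epyc-high and matn1-moderate cells, in both libraries.

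Other copies varied less. The next widest nuclear range belonged to cox7a1, the subunit 7a copy that in mammals is typical of muscle, with a smaller range of 3.04 in which the lowest levels held 3 UMIs in WT against 0 in mutant cells, the latter set to 3. It was highest in six2a-positive cells of both libraries, at 44.9 CPM in WT against 33.8 CPM in mutant cells, and had 15 UMIs in WT and 0 in mutant fibrous cells. Among the subunit 7a genes, cox7a2a held 37.9% of UMIs in WT against 28.6% in mutant cells, while cox7a3 held 27.8% and 35.3%. The ranges of ndufs6, at 2.11, and atp5s, at 1.89, rest on 3 to 8 UMIs in their lowest groups. The range of 2.11 for cox5b2 was set by the floor of 3 UMIs, since its nominally highest groups held 2 and 0 UMIs. The complex I gene ndufs6 was highest in col10a1a-positive cells, at 50.4 CPM in WT against 49.8 CPM in mutant cells. For several subunits 1 copy held nearly all UMIs: cox6b2 had 99.8% of cox6b UMIs in WT, COX5B 99.5% of cox5b, cox6a1 99.3% of cox6a, cox8a 98.9% of cox8 and sdhdb 98.2% of sdhd. How reads shared by copies were counted is not given in the sources used here, so splits between copies are uncertain.

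Lists of genes that build or express the pathway were counted in the same way. Of 40 measured assembly factors, which insert cofactors and join subunits, 26 were higher in the mutant, with a median log2 ratio of 0.17. This list includes sdhaf2, sdhaf3 and sdhaf4, which the symbol rule also counts among the nuclear members, and 23 of the 37 others were higher. Of 73 genes of the mitochondrial ribosome, which makes the 13 mt- proteins, 48 were higher, with a median of 0.13. Of 17 genes for replication, transcription and RNA processing of the mitochondrial genome, 10 were higher, with a median of 0.45. Beside these stand 41.9% of all genes higher and a median of -0.13. In the 4000 to 8000 UMI window 25 of 35 assembly factors, 41 of 72 ribosome genes and 6 of 9 genome expression genes were higher, beside 43.4% of all genes in these cells. Their medians in the window were 0.18, 0.12 and 0.09, against -0.10 for all genes. The median of the genome expression list was smaller there than over all cells, but it rested on 9 genes in place of 17. The ratio of the list's summed CPM was 1.66 in the window and 1.58 over all cells, where fastkd2 held the most mutant UMIs of the list.

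Within these lists fastkd2, a mitochondrial RNA granule protein in mammals, had 577 WT and 2004 mutant UMIs, giving a ratio of 2.97 (2.71 to 3.26). The transcription factor gene tfb2m had 42 and 106 UMIs, a ratio of 2.16, and tfam, which packages the mitochondrial genome, had 173 and 186 UMIs and a ratio of 0.919 with an interval that held 1. The gene slirp, whose mammalian product stabilizes mitochondrial mRNA, was lower with 609 and 470 UMIs, giving a ratio of 0.660 (0.584 to 0.745). The assembly factor genes uqcc3 and sco1 had ratios of 1.80 and 1.60, and cox10 one of 0.542.

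The citric acid cycle supplies the electrons. The list counted for it also held the pyruvate dehydrogenase genes pdha1a, pdhb and dlat. It left out the succinate dehydrogenase genes of complex II described above, of which sdhc and sdha were higher and sdhb lower in the mutant. Of the 17 measured genes of the list 13 were lower, beside 58.1% of all genes, with a median of -0.24 against -0.13. The ratio of its summed CPM was 0.896. Its gene with the most UMIs in WT, idh2, had 4254 and 3917 UMIs and a ratio of 0.787 (0.753 to 0.822). The gene with the most in the mutant, mdh2, had 4090 and 4751 UMIs and a ratio of 0.993. With ribosomal protein and mt- genes left out of the total, 10 of the 17 were lower beside 48.3% of all genes. The summed ratio was then 0.995, and it was 0.988 under TMM scaling, against 0.931 and 0.924 for the nuclear subunits. In the 4000 to 8000 UMI window 15 of 17 were lower beside 56.6% of all genes, with a summed ratio of 0.831. Of 6 electron carriers and exchangers 3 were lower over all cells, beside 58.1% of all genes. The cytochrome c gene cycsb, which carries electrons from complex III to IV, had 3524 and 2047 UMIs, 254 and 126 CPM, giving a ratio of 0.497 (0.470 to 0.524), whereas the ADP/ATP exchanger slc25a5 had 4778 and 4919 CPM, a ratio of 1.03. Of 5 measured regulators 3 were lower, close to that share. Among them nrf1 had a ratio of 0.687 (0.524 to 0.898). The gene ppargc1a, a coactivator of mitochondrial biogenesis, had 0 UMIs in both libraries and so lay under the limit given above for such a count.

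**Figure D5:**
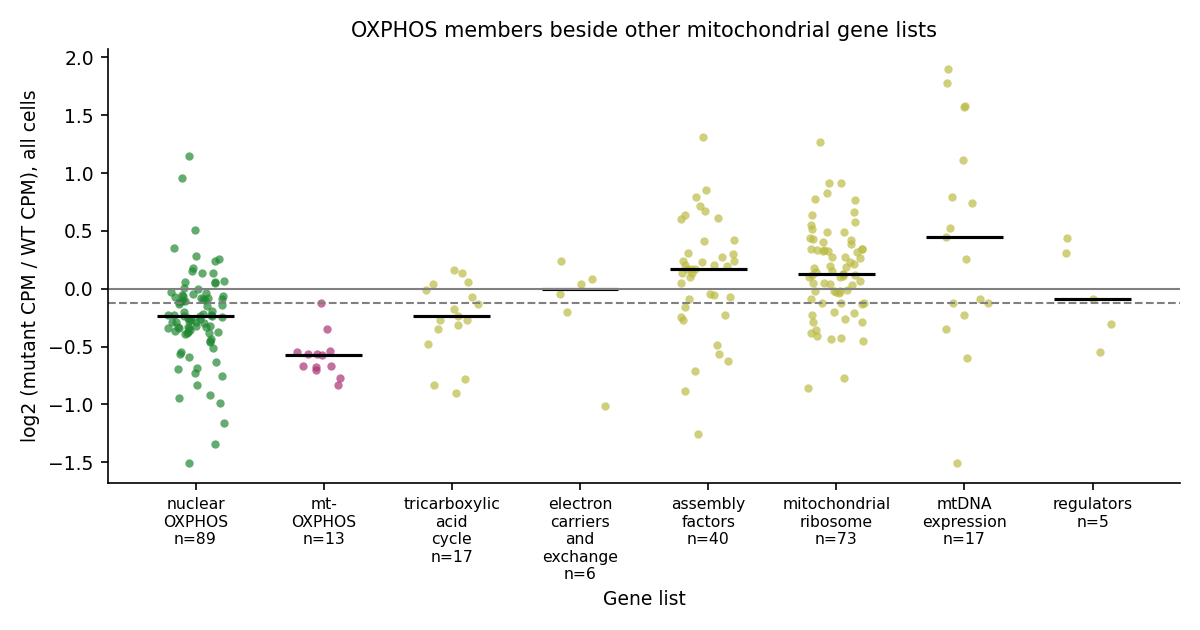
Log2 ratio of mutant to WT CPM over all cells for each measured gene of the nuclear and mt- subunits and of 6 other mitochondrial gene lists, with black bars at the medians. The solid line marks equal CPM and the dashed line the median of all genes at -0.13. The medians of the subunits and the citric acid cycle lie below the dashed line, and those of assembly factors, mitochondrial ribosome and mitochondrial genome expression lie above 0.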

How the data were processed

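Per the labels' protocols, double-positive live cells were captured with the 10x 3′ v2 kit, and per the submitters' processing notes the authors used Cell Ranger; its version and the genome build are not given in the sources used here. The deposited files hold raw UMI counts per gene and barcode, with 13927936 counts over 2057 barcodes in WT and 16349558 over 2005 in the mutant. The age in the characteristics (21 and 22 days) was used; the extract protocol gives 21 for both.

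Cells under 500 UMIs or 300 genes, or over 20% mt- UMIs, were to be dropped, and there were 0. Scrublet (Scanpy 1.11.5) called 3 WT and 9 mutant doublets, 0.295% of 4062 barcodes, a low share, so doublets of like cells may remain. Of the WT cells, 3 with over 5% globin were set apart.

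Counts were summed per library and cell group and divided by the group's total (CPM). Shares have exact binomial intervals and ratios of CPM exact conditional ones; the ratio of quotients has a Woolf interval in place of the exact one planned, which could not be computed in reasonable time. Counts below 3 entered log2 ratios as 3. Gates took cells with at least 3 UMIs and 1000 CPM of a marker or marker sum (six2a 400 CPM), in a fixed order of priority. Sums were of ifitm5 and bglapl (osteoblast), of ccl25b and cxcl12a (stroma) and of col5a1, postnb, mfap2, col1a2 and dcn (fibrous). The marker matn1 was split at 1000 and 8000 CPM. The epyc-high gate took only cells between these limits, so epyc-rich cells with more matn1 were counted as matn1-high. The split of ungated cells followed after marker values were seen. Markers snorc, ibsp and krt91 were not matched. Osteoblast-marker cells (28 and 12) were too few to compare. Named genes were all mt- genes, the 2 nuclear genes per complex with the most UMIs, those with the highest and lowest ratio among genes of at least 100 UMIs, the 5 nuclear genes with the widest ranges across groups, and paralog sets; ndufc2, ndufs1, ndufv1, atp5a1 and atp5b, and the genes named from other lists, were picked once values were known. The members and gene lists were chosen with earlier results of these data known. The ratio method was tested on simulated counts over 35117 genes. TMM factors came from edgeR 4.0.16; no count model was fitted. Python 3.11.15, numpy 2.4.6, scipy 1.17.1, pandas 2.3.3 and matplotlib 3.10.9 were used.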

Additional observations from a re-analysis of the deposited data

Results flagged for a closer look

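Among the 9 cell groups, mmp13b-positive cells were the only group with more mt- UMIs per nuclear UMI in the mutant than in WT, at a ratio of 1.04 (0.968 to 1.12), whereas the other 8 groups had ratios from 0.722 to 0.956. Among those 8, the interval of stroma (0.882 to 1.02) also held 1. The difference between groups was not tested. The mmp13b-positive group had 79 WT and 40 mutant cells, its counting interval held 1, and the mean of per-cell CPM gave 0.989. Its median depth was 5867 UMIs in WT and 5003 in the mutant, so that here the mutant cells were the shallower ones; the part of depth in this value was not tested.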

How the results depend on the processing

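Of 75 recomputed values that answer a comparison, 47 stayed within their limits and 28 moved, with no ratio among them changing side of 1. For ratios and medians over all cells the limit was the interval of the reported value. Counts of genes or of groups were held to a wide band of 1.5-fold, which is not an error. Leaving ribosomal protein and mt- genes out of the total gave a nuclear ratio of 0.931, an mt- ratio of 0.757, median log2 ratios of -0.088 and -0.42 and 36 nuclear genes higher; TMM gave 0.924, 0.751, -0.10, -0.43 and 35, both because all ratios shifted alike. The mean of per-cell CPM gave 0.830 and 0.702. Equal weight per cell group gave 0.855, 0.751, a ratio of quotients of 0.878 and an mt- median of -0.45. Without atp5g3b and mt-co2 the values were 0.828, 0.642 and 0.775. Chosen after seeing the data, the 4000 to 8000 UMI window gave 0.802, 0.766 and 0.955 with medians of -0.33 and -0.44; with ribosomal protein and mt- genes also left out it gave 0.877, 0.838 and an mt- median of -0.31. Without cells over 2% mt- the ratio of quotients was 0.833, and with equal weight per depth bin 0.914.

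Within groups 5 values changed side of 1. The ratio of quotients became 1.03 in ungated matn1-low cells with thresholds halved and 0.989 in mmp13b-positive cells with per-cell means. The nuclear ratio became 1.03 in col10a1a-positive cells without ribosomal protein and mt- genes, and 1.08 in six2a-positive cells and 1.01 in stroma under TMM. The cause of these reversals was not tested. Another 43 group values moved and 117 stayed within a fixed band around the reported value. That band was the same for all groups and is not a counting interval. No replicate could be left out with 1 library per genotype. No paired analysis was possible because each genotype had 1 library. Genes under about 100 UMIs, and groups under 50 cells, are limited by depth.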
